A study of Rattus norvegicus with 24 samples.

Results

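In plantaris muscle of rats from 2 lines, 66 of 31998 genes in the deposited table varied widely from one overloaded library to the next while staying steady among control libraries. Each library's estimated counts were first divided by the library's total and expressed as CPM, the usual depth-scaled unit. The spread of a gene within a group was then taken as the standard deviation (SD) of log2(CPM + 0.5) over its 6 libraries. A gene belonged to the set when its mean was 0.5 CPM or more over the 12 control libraries, its SD was 0.7 or more in both overloaded groups, and its SD was under 0.5 in both control groups. The members were therefore chosen on the measured spread itself, and the values of that spread below describe the choice and were not tested.

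The plantaris is a fast ankle extensor of the calf that works beside the larger gastrocnemius and the soleus. When those muscles are removed, the plantaris carries their load and enlarges over the following weeks, which is called functional overload. Overloaded muscle recruits inflammatory cells, activates its satellite cells (the resident muscle stem cells) and remodels its extracellular matrix while the fibres grow. The surgical removal also injures neighbouring tissue, so an overloaded muscle can hold a changing mixture of cell types.

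All 24 libraries came from female rats, 14 months old and of generation 19 of their lines. The HRT line was bred for a high response to endurance training and the LRT line for a low response. In each line, 6 libraries came from control plantaris and 6 from plantaris overloaded for 14 days by ablating the gastrocnemius and soleus on 1 side. The labels name no sham operation, and whether a control muscle was the unoperated leg of an overloaded rat or came from another rat is not given. The p-values therefore speak of the variation among these libraries, part of which may be technical. The comparisons ask how each line's plantaris responds to overload and whether the lines differ.

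Library totals ran from 26997674 to 34254957 counts. RNA integrity numbers (RIN) ran from 8.0 to 8.6 in controls and from 8.2 to 9.4 after overload. No pair of libraries of a group were alike within sampling noise (60 pairs, 14775 genes, lowest chi-square per degree of freedom 12.4). The table identifies genes by Ensembl gene identifiers, and 0 of them matched the gene name table used here, which covers 47357 genes. The members are therefore described by identifier, level and pattern, and the tissue label could not be checked against muscle markers.

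Of the 14636 genes that reached the control minimum, 13998 were steady in both control groups. Among these steady genes, the SD of 0.7 was reached by 291 in the HRT line after overload and by 87 in the LRT line, and the 66 members are those in both lists. The members made up 22.7% of the HRT list and 75.9% of the LRT list. Without the condition on control spread, 150 genes reached the overload SD in both lines at the control minimum, and 84 of them were left out because they also varied in a control group. The same rule turned around, with high spread in both control groups and low spread in both overloaded groups, was met by 8 genes.

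Among members the median SD of log2(CPM + 0.5) was 0.266 in HRT controls and 1.00 in HRT overload. In the LRT line it was 0.31 in controls and 0.841 in overload. Over all 13998 steady genes the medians were 0.135 and 0.225 in the HRT line and 0.159 and 0.19 in the LRT line. Spread was thus larger after overload in these genes too and not in the members alone. They were chosen for low spread in controls, however, which favours that difference. In HRT overload 33 members had an SD of at least 1 and 4 of at least 1.5, and in LRT overload these numbers were 14 and 2. The SD was larger in HRT than in LRT overload for 51 of the 66 members, and for 64.0% of all steady genes. The 3 members nearest the threshold had a smaller overload SD of 0.703, 0.704 and 0.709, and the 3 nearest genes outside it had 0.693, 0.692 and 0.692.

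**Figure D1:**
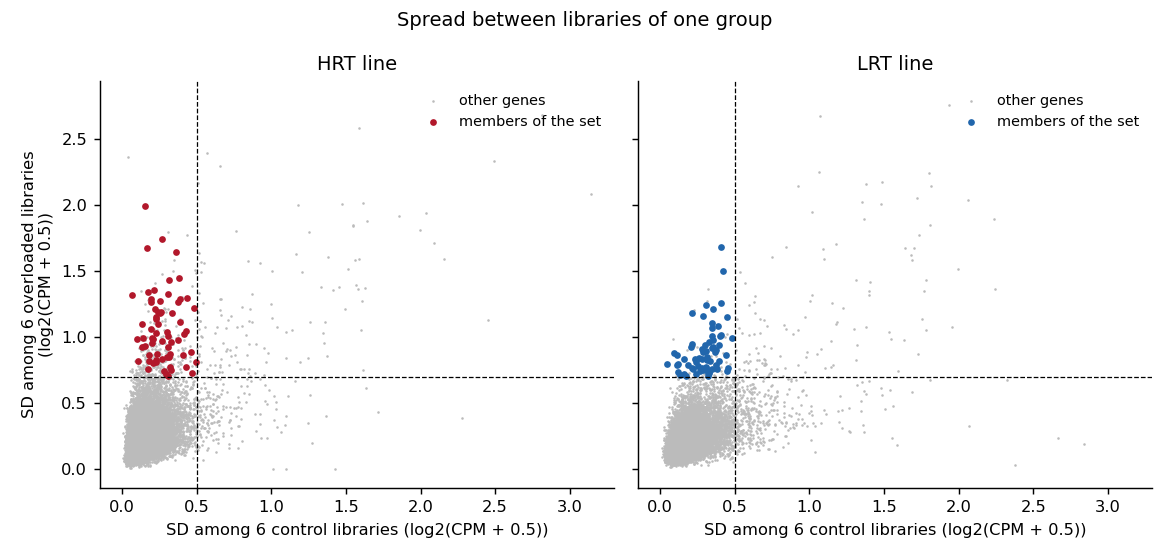
Each point is 1 gene with a control mean of at least 0.5 CPM. The horizontal axis is the SD of log2(CPM + 0.5) among the 6 control libraries of a line, the vertical axis the SD among its 6 overloaded libraries, and dashed lines mark the thresholds of 0.5 and 0.7. Coloured members fill the upper left corner by construction, and their SD after overload reaches 2.0 in the HRT line and 1.69 in the LRT line.

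The SD that counting alone would give a member had a median of 0.065 after HRT overload and 0.084 after LRT overload, and its highest value was 0.163 and 0.165. Since the rule asked for an SD of at least 0.7, an observed spread above counting error was fixed by the choice of members, and it includes variation between muscles. Counting error does not cover the division of reads between similar genes. As a ratio, the highest HRT overloaded library exceeded the lowest by 3.36-fold to 27.4-fold (median 6.71-fold). In LRT overload the ratio ran from 3.24-fold to 25.4-fold (median 5.50-fold), leaving out 1 member with a library at 0 counts. Control ratios could also be large in members near the floor, where the added 0.5 narrows the SD. For ENSRNOG00000038957 they were 8.10-fold in HRT controls (mean 0.557 CPM) and 7.96-fold in LRT controls (mean 0.512 CPM).

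Membership depended on single libraries and on scaling. Without LRT overload replicate 2 the rule chose 39 genes, of which 38 were members, and without LRT overload replicate 5 it chose 41, of which 37 were members. After scaling with edgeR's trimmed mean of M values (TMM), which sets the bulk of genes level between libraries, it chose 45, of which 43 were members. TMM factors were 0.844 to 0.955 in controls and 0.977 to 1.28 after overload, so on library totals a typical gene shifts with the factor as well as with its own change.

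Most members were scarce in control muscle and moderately abundant after overload. Their control means ran from 0.511 to 124 CPM with a median of 2.0. Their means over the 12 overloaded libraries ran from 1.36 to 1116 CPM with a median of 17.1. By that overload mean, 21 members were under 10 CPM, 37 were between 10 and 100 CPM, and 8 were at 100 CPM or more. The 3 most abundant held 50.8% of the summed overload level. These levels are not per gene length, so they do not rank transcripts of different genes.

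The direction of the members' response was not part of the rule, but it is linked to it, since unequal rises are themselves spread. With edgeR's quasi-likelihood test and Benjamini-Hochberg adjustment over 16661 tested genes, 57 of 66 members rose with overload in the HRT line and 1 fell. Across all tested genes, 31.9% rose and 31.2% fell in that comparison. In the LRT line 60 members rose and 0 fell, against 28.9% and 28.3% of all tested genes; here 60 members, and 61.3% of all tested genes, had an unadjusted p under 0.05, and DESeq2 also called 0 lower. The 56 members that rose in both lines compare with 25.5% of tested genes, and 4 members were called in neither line. All 66 members passed the filter on low counts.

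The members' fitted log2 fold changes had a median of 2.79 in the HRT line and 2.44 in the LRT line, against -0.02 over all tested genes in each. In the HRT line 42 members were fitted at least 4-fold higher and 12 at least 16-fold higher. In the LRT line 43 were at least 4-fold and 2 at least 16-fold higher. Scaling by library totals moved the median of all tested genes to 0.27 and 0.22, and the members' medians to 3.16 and 2.70. Fitted fold changes were positive for 64 of 66 members in each line. RIN also differed between controls and overload; with RIN as a covariate 55 members rose in the HRT line, against 27.6% of tested genes, and 60 in the LRT line, against 27.7%.

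Despite the spread, the groups were often fully apart. In 44 members every HRT overloaded library lay above every HRT control, as it did in 30.4% of tested genes. In the LRT line this held for 46 members and 25.9% of tested genes. Seen from the other side, 227 genes at the control minimum rose over 4-fold in both lines, and 38 of them were members. That is 16.7% of the strongly risen genes and 57.6% of the members, so most genes with a large rise did not meet the rule on spread.

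**Figure D2:**
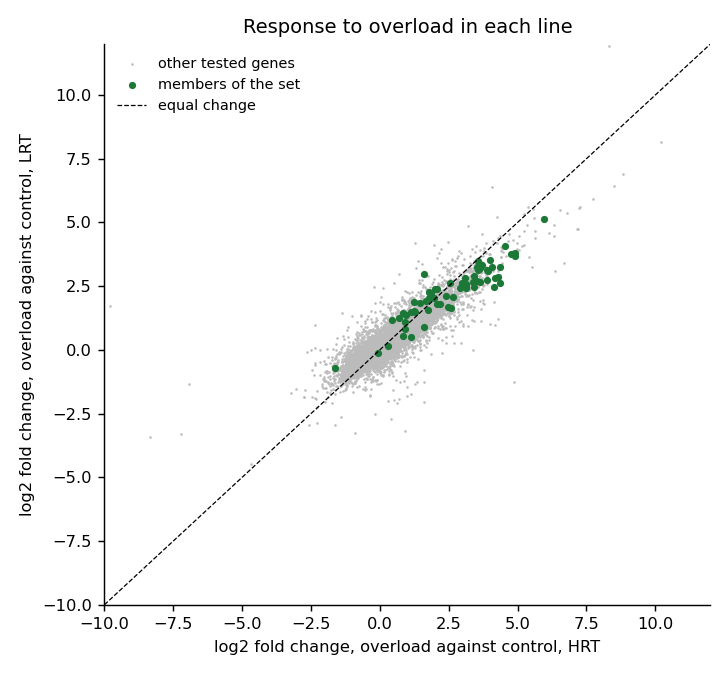
Each point is 1 of 16661 tested genes, with the fitted log2 fold change of overload against control in the HRT line on the horizontal axis and in the LRT line on the vertical axis. Green points are the 66 members, of which 64 lie above 0 in both lines, and the dashed line marks equal change.

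ENSRNOG00000043219 had the largest mean rise of the set. Its level in controls was 0.785 to 2.01 CPM in the HRT line and 0.413 to 1.35 CPM in the LRT line. In HRT overload its level was 227, 166, 36.2, 17.7, 50.7 and 154 CPM in replicates 1 to 6. In LRT overload it was 62.3, 85.9, 28.6, 32.5, 11.7 and 22.9 CPM. No overloaded library overlapped any control, yet replicates 1, 2 and 6 of the HRT line all stood above replicates 3, 4 and 5. The fitted log2 fold change was 5.94 ± 0.61 (SE) in the HRT line (edgeR adjusted p = 4.75e-08) and 5.13 ± 0.61 in the LRT line (edgeR adjusted p = 6.31e-07).

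ENSRNOG00000005348 was the second gene named for its rise, and its HRT overload libraries lay in the same order as those of ENSRNOG00000043219. Controls held 0.928 to 1.55 CPM in the HRT line and 0.975 to 2.06 CPM in the LRT line. HRT overload gave 101, 77.8, 13.3, 10.1, 30.8 and 56.9 CPM in replicates 1 to 6, and LRT overload gave 29.6, 40.2, 17.5, 17.7, 8.06 and 19.1 CPM. The lowest overloaded library, LRT replicate 5, was still above the highest control. The fitted log2 fold changes were 4.91 ± 0.49 (SE) in the HRT line (edgeR adjusted p = 2.98e-08) and 3.81 ± 0.47 in the LRT line (edgeR adjusted p = 1.05e-06).

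ENSRNOG00000019648 was the most abundant member and lay close to the spread threshold. This gene, the next 2 described and ENSRNOG00000007033 were singled out after their values were seen. Its level was 131 ± 20.8 CPM (SD, n = 6) in HRT controls and 117 ± 14.3 CPM (SD, n = 6) in LRT controls. HRT overload replicates 1 to 6 held 2489, 2044, 700, 630, 1047 and 1730 CPM, and LRT overload replicates held 1025, 1386, 617, 644, 332 and 745 CPM. Every overloaded library was above every control. The fitted log2 fold changes were 3.12 ± 0.29 (SE; edgeR adjusted p = 4.67e-09) and 2.49 ± 0.28 (SE; edgeR adjusted p = 1.66e-07).

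ENSRNOG00000025184 had the largest SD in HRT overload, 2.0. Its controls lay between 0.55 and 1.29 CPM in both lines. In HRT overload replicates 3 and 4 were at 2.58 and 1.99 CPM, while the other replicates were at 47.3, 54.5, 25.2 and 30.8 CPM. In LRT overload the 6 libraries held 8.88, 14.8, 8.19, 4.32, 1.97 and 5.27 CPM. The gene rose in both lines, by 4.27 ± 0.64 (SE) on the log2 scale in the HRT line (edgeR adjusted p = 6.35e-06) and by 2.86 ± 0.64 in the LRT line (edgeR adjusted p = 0.000708).

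ENSRNOG00000001959 had the largest SD common to both overloaded groups, at 1.64 in the HRT line and 1.26 in the LRT line. Its controls ran from 3.86 to 8.04 CPM. HRT overload gave 17.4, 90.3, 8.01, 21.5, 9.24 and 128 CPM in replicates 1 to 6, and LRT overload gave 30.1, 44.5, 58.5, 85, 15.5 and 7.67 CPM. The lowest library of each overloaded group overlapped its controls. Its order of libraries also differed from that of the genes above: LRT replicate 4 was the highest of its group and LRT replicate 6 the lowest. The fitted log2 fold changes were 2.54 ± 0.63 (SE; edgeR adjusted p = 0.00139) and 2.63 ± 0.63 (SE; edgeR adjusted p = 0.00124).

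Only 2 members had a negative fitted change in both lines. ENSRNOG00000057534 was at 3.53 ± 0.75 CPM (SD, n = 6) in HRT controls and fell to 1.67, 0.359, 3.24, 0.912, 1.02 and 1.02 CPM in HRT overload replicates 1 to 6. Its log2 fold change there was -1.63 ± 0.46 (SE; edgeR adjusted p = 0.00389). In the LRT line it was at 2.90 ± 1.11 CPM (SD, n = 6) in controls and at 2.95, 3.39, 3.15, 0.134, 1.86 and 1.35 CPM after overload, and the change of -0.70 ± 0.45 did not pass (SE; edgeR adjusted p = 0.193). The groups overlapped in both lines.

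ENSRNOG00000037984 had 1 low library in each overloaded group. In HRT overload replicate 3 was at 9.59 CPM and the others at 22.2 to 38.8 CPM, and in LRT overload replicate 4 was at 4.94 CPM and the others at 30.1 to 36.1 CPM. Controls ran from 15.4 to 33.9 CPM. Its fitted log2 fold changes were -0.08 ± 0.33 (SE) in the HRT line (edgeR adjusted p = 0.843) and -0.10 ± 0.33 in the LRT line (edgeR adjusted p = 0.806), and the sign turned when library totals were used (0.23 and 0.16) or when the low library was left out (0.09 without HRT replicate 3, 0.11 without LRT replicate 4). With RIN as a covariate it was 0.05 in the HRT line.

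**Figure D3:**
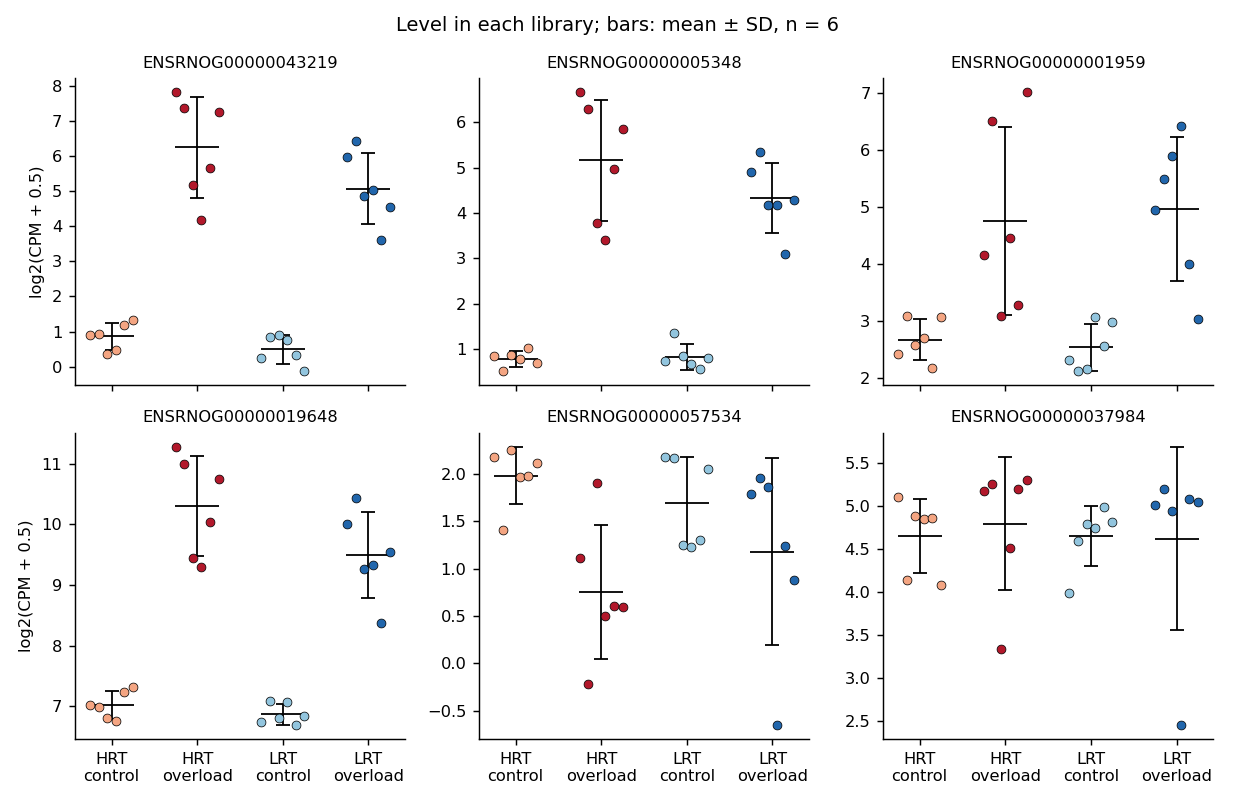
Points give log2(CPM + 0.5) of 6 members in each of the 24 libraries, in 4 groups of 6 on the horizontal axis, with bars for the mean and SD. In the panels of ENSRNOG00000043219, ENSRNOG00000005348 and ENSRNOG00000019648 all overloaded libraries lie above all controls, and in the panel of ENSRNOG00000037984 1 library per overloaded group lies far below the rest.

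The members' summed level differed widely between overloaded libraries. The 3 most abundant members held 50.8% of it after overload, so the sum leans on few genes. The summed level of the members was 446 to 624 CPM in the 12 controls. In HRT overload it was 11125, 10102, 2414, 2314, 3861 and 8409 CPM in replicates 1 to 6. In LRT overload it was 3732, 6086, 2625, 3102, 1309 and 2364 CPM. The mean sum was 11.1-fold higher after overload in the HRT line and 6.28-fold higher in the LRT line, and even the lowest overloaded library exceeded the highest control of its line by 3.71-fold and 2.28-fold. Within overload the highest library exceeded the lowest by 4.81-fold in the HRT line and 4.65-fold in the LRT line. In whole muscle, more cells of a type and more RNA per cell cannot be told apart.

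Set against the control mean of its line, the median member had changed by 3.38, 3.37, 1.70, 1.38, 2.30 and 3.39 on the log2(CPM + 0.5) scale in HRT overload replicates 1 to 6. In LRT overload the median changes were 2.35, 3.15, 2.10, 2.42, 1.10 and 1.79. The extremes fell on few libraries. In the HRT line 28 members were highest in replicate 6 and 27 in replicate 1, while 36 were lowest in replicate 3 and 27 in replicate 4. In the LRT line 48 members were highest in replicate 2 and 39 were lowest in replicate 5. The library with the fewest members above all controls of its line had 50 (HRT replicate 3), and LRT replicate 5 had 52. No share over all tested genes is given for these counts, so they are descriptive.

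**Figure D4:**
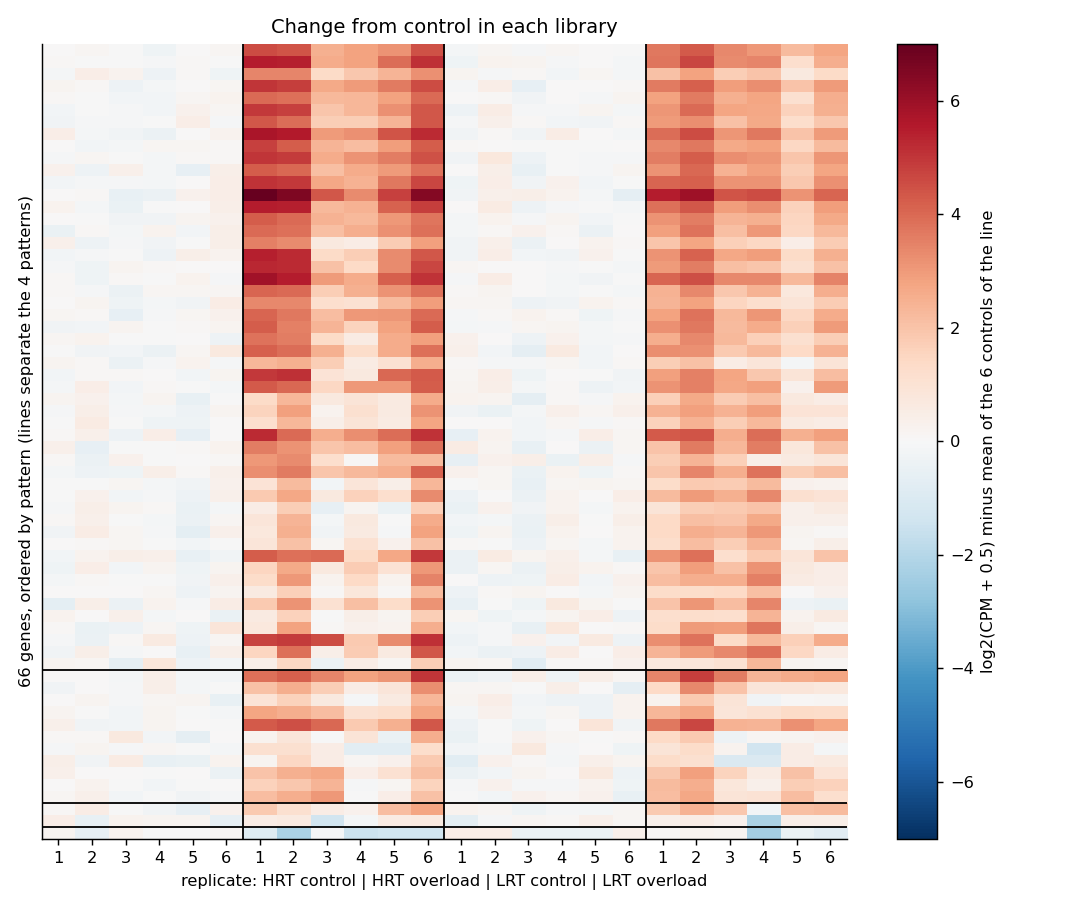
Rows are the 66 members, columns the 24 libraries grouped by line and treatment, and colour is log2(CPM + 0.5) minus the mean of the 6 controls of the line. Control columns are pale throughout, HRT overload replicates 1, 2 and 6 and LRT overload replicate 2 are the darkest, and LRT overload replicate 5 is the lowest LRT overloaded library in 39 rows.

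The covariation was described with Pearson's r between pairs of members, after subtracting each gene's group mean. Over the 12 overloaded libraries the median pairwise r was 0.66. Of the pairs, 95.8% were above 0, against 65.0% over all tested genes. Over the 12 controls the median was 0.08. The corresponding medians over all tested genes were 0.22 and 0.03. Members were chosen for low spread in controls and for wide spread after overload. That choice favours a low r in controls and a high r after overload. The members' 0.66 and 0.08 therefore cannot show whether overload changed their covariation. The median within overload was 0.71 in the HRT line and 0.64 in the LRT line. All pairs share libraries, depth and scaling, so these values are descriptive; with TMM scaling the members' median was 0.59. Measured against the median deviation of all members, 59 members had an r above 0.5 and 23 above 0.9. That median is computed from the same members, so a high r is partly built in.

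Average-linkage clustering of these deviations, cut into 4 clusters, gave patterns of 52, 11, 2 and 1 members. The clusters were built from the values they describe and were not tested. In the first pattern, the median deviation from the group mean was 0.83, 0.92, -1.18, -0.81, -0.40 and 0.94 in HRT overload replicates 1 to 6 and 0.35, 1.05, -0.02, 0.24, -1.16 and -0.40 in LRT overload. In the second it was 0.24, 0.68, 0.06, -1.16, -0.99 and 0.79 in HRT overload. The LRT values of the second pattern were 0.49, 1.20, -0.74, -0.80, -0.01 and -0.39.

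Both patterns were high in HRT replicates 2 and 6 and in LRT replicate 2. They parted at HRT replicate 3, which was above the group mean in 2 of 52 members of the first pattern and in 6 of 11 of the second, and at LRT replicate 5, which was the lowest library for 39 of 52 and for 0 of 11. The second pattern was instead low in LRT replicates 3 and 4. Pearson's r between the pattern medians was 0.62 over the 12 overloaded libraries. It was 0.51 with TMM scaling or without LRT replicate 2, and 0.75 without HRT replicate 3.

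Members of the first pattern had median log2 fold changes of 3.14 in the HRT line and 2.63 in the LRT line, and 48 and 52 of the 52 rose. Members of the second had medians of 1.74 and 1.80, and 8 and 7 of the 11 rose. The median overload mean was 22.0 CPM in the first and 7.53 CPM in the second. ENSRNOG00000037984 and 1 other gene formed the third cluster and ENSRNOG00000057534 the fourth.

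**Figure D5:**
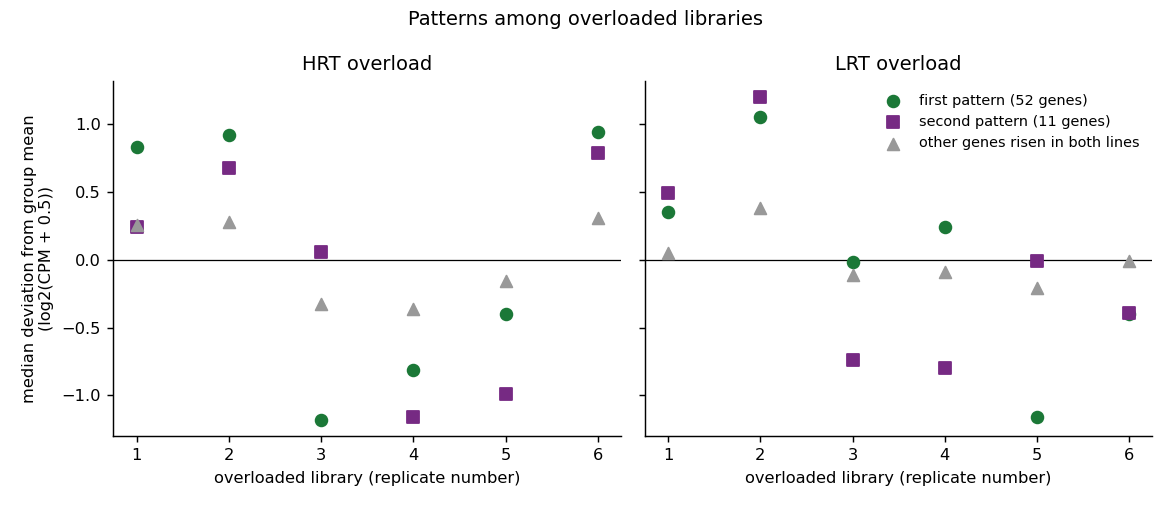
The vertical axis is the median deviation of log2(CPM + 0.5) from the group mean in each overloaded library, by replicate number on the horizontal axis, for the first pattern (52 genes), the second (11 genes) and the other genes that rose in both lines. The patterns lie apart at HRT replicate 3 (-1.18 and 0.06) and LRT replicate 5 (-1.16 and -0.01). The other risen genes move over a smaller range, which is favoured by choosing members for wide spread.

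The 4191 other genes that rose in both lines deviated over a smaller range, with the same libraries, HRT replicate 6 and LRT replicate 2, highest in each line. Their median deviations in HRT overload replicates 1 to 6 were 0.26, 0.28, -0.33, -0.36, -0.16 and 0.31, and in LRT overload 0.05, 0.38, -0.11, -0.09, -0.21 and -0.01. Over the 12 overloaded libraries their medians had an r of 0.94 with the first pattern and 0.79 with the second. Their median SD was 0.370 in HRT overload and 0.280 in LRT overload, against 1.00 and 0.841 in members. The rule asked members for an SD of at least 0.7 in both overloaded groups. Their wider spread and range therefore describe the choice of members. The 3763 genes that fell in both lines had median SDs of 0.150 and 0.141.

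Measures of the libraries moved with the patterns to unequal degrees. Over the 12 overloaded libraries, each as a deviation from its group mean, the TMM factor had an r of 0.83 with the first pattern and 0.86 with the second. RIN had an r of -0.41 and 0.03, and the library total -0.38 and -0.47. The part of these measures in the spread was not tested. The spread was present after TMM scaling too, where the members' median deviation ran from -0.95 (replicate 3) to 0.77 (replicate 6) in HRT overload and from -1.08 (replicate 5) to 0.88 (replicate 2) in LRT overload.

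The lines were then compared. Mean CPM on library totals after overload was higher in the HRT than in the LRT line for 56 of 66 members. The libraries of the lines overlapped in all 66. With library totals the median log2 difference of LRT against HRT overload over all tested genes was -0.15, so that scale favours the 56. Overlap was favoured by the wide spread that the rule asked for in both overloaded groups. No share over all tested genes is given for the 56 or for the overlap. In edgeR's test of LRT against HRT overload, 0 members passed the adjusted threshold and 28 had an unadjusted p under 0.05. Across all tested genes, 3.09% passed and 22.3% had an unadjusted p under 0.05. Members were chosen for a wide spread within both overloaded groups, which enters the error of this test and works against calls. The members' median log2 difference was -0.54, against -0.01 over all tested genes, and 46 members were lower in the LRT line. The other 20 (30.3%) were higher there, as were 48.3% of all tested genes. DESeq2 called 5 members lower in the LRT line, against 3.61% of the genes it tested, and limma-voom called 0. With RIN as a covariate edgeR called 5 members lower, against 2.45% of tested genes, and with library totals 6, against 11.6%. Leaving out HRT replicate 3 gave 16 members lower (5.48% of tested genes), leaving out HRT replicate 4 gave 15 (4.49%) and leaving out LRT replicate 2 gave 15 (5.21%), so whether members were called between the lines rested on single libraries.

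ENSRNOG00000007033 had the smallest adjusted p among members in that comparison. Its controls ran from 0.979 to 1.57 CPM across both lines. HRT overload gave 68.6, 66.5, 6.83, 4.13, 17.4 and 45.3 CPM in replicates 1 to 6, and LRT overload gave 14.4, 22, 7.37, 6.72, 3.47 and 7.13 CPM. HRT replicates 3, 4 and 5 thus lay among the LRT libraries, while HRT replicates 1, 2 and 6 lay above all of them. The log2 difference of LRT against HRT overload was -1.58 ± 0.48 (SE; edgeR adjusted p = 0.0677). The adjusted p ranged from 0.0164 to 0.242 over the other settings and tools.

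The test of whether the 2 lines responded differently called 0 members with edgeR, DESeq2 and limma-voom, and 2 members had an unadjusted edgeR p under 0.05. Across all tested genes edgeR called 0.048%, and 13.6% had an unadjusted p under 0.05. The spread asked for by the rule works against calls in this test too, so the low counts do not show equal responses. The members' differences in log2 response (LRT minus HRT) had a median of -0.39 and ran from -1.73 to 1.38. They were negative for 46 members and positive for 20 (30.3%), against 46.5% positive over all tested genes. The lowest edgeR adjusted p was 0.235. For ENSRNOG00000007033 the difference was -1.73 ± 0.78 (SE; edgeR adjusted p = 0.342).

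In control muscle 0 members differed between the lines with edgeR, DESeq2 or limma-voom, and 0 had an unadjusted edgeR p under 0.05. Across all tested genes 1.97% were called and 16.6% had an unadjusted p under 0.05. The model pools spread over all 24 libraries, so the wide overload spread asked for by the rule works against calls here. With the 2 control groups fitted alone, edgeR called 0 members and 8 had an unadjusted p under 0.05. In that fit the low control spread asked for by the rule favours small p-values, and no share over all tested genes is given. Neither fit can therefore decide whether members are more or less alike between the lines than other genes. The members' median log2 difference of LRT against HRT controls was -0.09, with 46 members lower in the LRT line. The other 20 (30.3%) were higher there, as were 51.2% of all tested genes. Comparisons of the lines in overload, in control and in response share libraries, so their signs are not independent.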

How the data were processed

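RNA of 24 plantaris muscles was sequenced from Illumina TruSeq libraries, per the labels' protocols. The authors deposited estimated counts per gene, not normalized. Salmon 0.9.1 and 2 names of a build, Rnor_6.0 and rn6, appear in the submitters' processing notes. Annotation and settings were not given there. Within a tolerance of 0.001, 2.62% of values from 1 upward were whole, and reads of near-identical genes are divided between them.

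The spread rule used CPM on library totals and log2(CPM + 0.5). For tests, estimated counts were rounded, filterByExpr (minimum count 10, minimum total 15) kept 16661 genes holding 99.95% of counts, and edgeR 4.0.16 in R 4.3.3 fitted 1 robust quasi-likelihood model with TMM scaling and a coefficient per group to all 24 libraries. The F-test was adjusted by Benjamini-Hochberg over all tested genes, with a threshold of 0.05. Standard errors (SE) are approximate: the size of each log2 fold change divided by the root of its F. Library totals of 26997674 to 34254957 counts set the counting precision. Line and treatment in the labels gave the groups.

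Alternatives were DESeq2 1.42.0 and its size factors, limma-voom (limma 3.58.1) with group weights, library totals, other filters, non-robust dispersion, RIN, the replicate number as a block, the compared groups alone, each library left out, and other settings of the spread rule. The steps were tested on simulated data. The covariation alternatives were added after seeing the data.

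The members and the gene lists were chosen with earlier results of these data known. The rule for named genes allowed, without symbols, 2 identifiers with the largest mean rise and 2 with the lowest response, and the others were singled out after their values were seen. With 0 identifiers matched to names, the gene lists and cell type markers could not be used, and no sequences were matched. Python 3.11.15 with matplotlib 3.10.9 drew the plots.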

Additional observations from a re-analysis of the deposited data

Results flagged for a closer look

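Among the 40 groups of 6 libraries checked for a single library far from the rest (a gap over 0.625 of the group's range), 2 were found, and chance alone marks about 1 in 20 groups. ENSRNOG00000005348 was at 2.06 CPM in LRT control replicate 2, with the other LRT controls at 0.975 to 1.29 CPM and all overloaded libraries above them. ENSRNOG00000037984 was at 4.94 CPM in LRT overload replicate 4, with the other libraries of that group at 30.1 to 36.1 CPM.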

How the results depend on the processing

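With any library left out, 54 to 60 members were called in either direction in the HRT line (53 to 59 higher) and 59 to 60 in the LRT line, all higher; under the 10 other settings these were 55 to 61 (54 to 60 higher) and 59 to 60, all higher. In the main edgeR fit, 31.9% of all tested genes rose with overload and 31.2% fell in the HRT line. In the LRT line these shares were 28.9% and 28.3%. Among the other settings, a share for overload is given only for rises with RIN as a covariate. The remaining overload counts therefore describe members alone. The calls for the difference between responses and for the lines in control muscle stayed at 0 under every setting run. The number of genes meeting the spread rule was 136 with an SD threshold of 0.6 and 35 with 0.8, and 39 to 95 with any library left out; a pseudocount of 0.25 gave 69 and of 1 gave 57, a control minimum of 1 CPM gave 48, and TMM scaling gave 45. The members called between the lines in overload numbered 0 in the main comparison, 6 with library totals, 5 with RIN as a covariate, 5 with DESeq2, and 0 to 16 with any library left out; the cause was not tested. ENSRNOG00000037984 changed sign in the HRT line with library totals (0.23) and RIN (0.05) and without single libraries (-0.18 to 0.09, among them 0.01 without HRT control replicate 1), and in the LRT line with library totals (0.16) and without single libraries (-0.22 to 0.11); the cause was not tested. Deviations of same-numbered overloaded and control libraries had an r from -0.098 to 0.127, which cannot show whether those libraries share a rat. With the replicate number as a block 56 members were called in the HRT line, 59 in the LRT line and 0 in each other comparison. These counts too are given without a share over all tested genes. Single genes with few counts in controls have fold changes limited by that depth.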
